A study of Mus musculus with 16 samples.

Results

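Marrow T and NK cells were examined as 298 of the 31191 single cells kept from 6 libraries of CD45+ BM cells. A cell was kept when its gene number lay between 200 and 6000 (both excluded) and mitochondrial genes took no more than 10% of its unique molecular identifiers (UMIs, 1 for each captured RNA molecule). A kept cell was taken as a T or NK cell when its UMIs of Cd3e, Cd3g, Trbc2, Ncr1 and Klrb1c summed to at least 3 and those of Cd79a and Cd79b to at most 1. The first 3 genes encode parts of the T cell receptor complex, Ncr1 and Klrb1c encode NK cell receptors, and Cd79a and Cd79b encode the B cell receptor partners. The cells were thus chosen by the measured UMIs of these 7 genes, so their levels are no result here. Cells just inside and just outside the rule were alike in number, with 22 cells at exactly 3 marker UMIs (median 2608.5 UMIs in all) and 22 cells at 2 marker UMIs (median 3967).

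The study asked how CBP/P300 bromodomain (BRD) inhibition acts on the BM of tumor-bearing mice, in which neutrophils are overproduced. WT BM (labelled ctrl) came from untreated, non–tumor-bearing BALB/c mice. Vehicle BM and IACS-70654 BM came from mice carrying 2208L, a transplanted Trp53-null mammary tumor line, which were dosed by mouth with the vehicle or with IACS-70654, an inhibitor of the CBP/P300 BRD. The series record gives 7 days of dosing (3 days on, 2 days off) for these mice, while the text of the study gives a shorter course for the BM experiment, and which of these applied is not known here. Each group had 2 replicate libraries of CD45+Ter119- cells, and cells of 3 mice were pooled per sample, so p-values measure the spread between libraries and not between mice. In tests of cell numbers, this spread was estimated over all cell classes of a test together and not for each class alone. The series record can be read as 1 pool for each treatment group, in which case the replicates would be technical.

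T cells carry a clonal antigen receptor with the CD3 chains and mature in the thymus, so that T cells in BM are mostly recirculating, memory and regulatory cells. NK cells develop in BM itself, kill with perforin and granzymes, and release chemokines and IFN-γ. Both are minor populations of BM, in which neutrophils and their precursors prevail. CBP and P300 are histone acetyltransferases and coactivators, and their BRD binds acetylated lysines.

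The WT libraries yielded 111 and 80 T and NK cells, the vehicle libraries 23 and 21, and the IACS-70654 libraries 31 and 32. The UMIs summed over these cells came to 647694 and 447866 in WT, 195607 and 155515 with vehicle and 155909 and 190711 in IACS-70654 BM. Gene levels in the tumor-bearing groups therefore rest on fewer cells and fewer molecules than in WT. Median UMIs per T or NK cell ran from 3880.5 to 6141 over the libraries, and no barcode was shared in any of the 15 pairs of libraries.

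The marker genes that the rule had not used matched the label. Cells without any Ncr1 or Klrb1c UMI were called the T arm (170 cells), cells with at least 2 of those UMIs and at most 1 UMI of Cd3e, Cd3g and Trbc2 were called the NK arm (61 cells), and 67 cells lay between. Cd3d, another CD3 chain, had a UMI in 137 of 170 T arm cells and in 11 of 61 NK arm cells, and Trac, the T cell receptor α constant gene, in 105 and in 5. Cd3d had been kept out of the rule because immature neutrophils express it, so a Cd3d UMI alone does not mark a T cell. Klrd1, which encodes the CD94 receptor of NK cells, had a UMI in 60 of 61 NK arm cells and 52 of 170 T arm cells. Nkg7, a cytotoxic granule gene, had one in 61 of 61 NK arm cells but also in 89 of 170 T arm cells, so it did not separate the arms. Gzma, which encodes granzyme A, had a UMI in 53 NK arm cells and 3 T arm cells. In 654 B cells with an Ighd UMI, which should lack these genes, Trac and Gzma had a UMI in 0 cells, Klrd1 in 2 cells and Nkg7 in 27 cells. These B cells were chosen without any UMI of Cd3e, Cd3g, Trbc2, Ncr1 or Klrb1c. Their low values for other T and NK genes are thus partly set by that choice. Cells between the arms were closer to NK cells, with Klrd1 in 66 of 67 and Trac in 12 of 67 cells.

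Markers of other cells were low in most T and NK cells, with neutrophil RNA as the main exception. The macrophage genes C1qa and C1qb, the pre-B gene Igll1 and the erythroid genes Klf1, Car1, Hbb-bt and Hba-a2 had 0 UMIs. Cd74, the MHC class II invariant chain, had a UMI in 5 of 298 cells, but 1 cell of vehicle replicate 1 held 63 of its 67 UMIs. The same cell held 45 of 49 H2-Aa, 36 of 44 H2-Eb1 and 29 of 44 H2-Ab1 UMIs, which encode MHC class II chains. The 7 MHC class II genes took 0.0956% of the UMIs in vehicle replicate 1 and between 0.00432% and 0.0077% in the other 5 libraries. This cell counted to the NK arm, with 0 UMIs of Cd3e and 1 UMI of Nkg7. The 14 B cell genes together took between 0.0103% and 0.0263% of the UMIs of a library's T and NK cells, 13 of them with a UMI, and the 10 erythroid and progenitor genes at most 0.00629%, 5 of them with a UMI. The B cell list includes Cd79a and Cd79b, which the rule limited, so its low share is partly set by the choice of cells. The 9 dendritic cell genes, all with a UMI, took between 0.0289% and 0.0527%. The 6 basophil and mast cell genes all had a UMI and took 0.144% in WT replicate 2, in which 1 cell was rich in basophil RNA, and at most 0.0046% in each of the other 5 libraries. Of 21 neutrophil genes, 1 was not among the measured genes and the other 20 all had a UMI. They took 3.31% and 2.89% of the UMIs in WT, 8.59% and 8.89% with vehicle and 3.32% and 3.76% in IACS-70654 T and NK cells. Most of that RNA sat in few cells. Neutrophil genes exceeded 3% of a cell's UMIs in 6 and 6 WT, 3 and 5 vehicle and 3 and 5 IACS-70654 cells, 28 in all. Those cells held 11.3% and 9.57% of the UMIs in WT, 27.7% and 34.4% with vehicle and 19.0% and 29.7% in IACS-70654, and their median UMI count was 10246.5 against 4339.5 in the other 270 cells. Without them, neutrophil genes took between 0.802% and 1.04% in every library, which the 3% limit partly sets. Monocyte and macrophage genes, 11 of 13 with a UMI, took 0.510% and 0.596% in vehicle libraries, above the 0.192% and 0.229% in WT and 0.131% and 0.128% in IACS-70654 libraries. The main gene results are therefore also given after 33 cells were left out that were rich in neutrophil, monocyte or basophil RNA (myeloid-rich cells), which left 104 and 72 WT, 19 and 15 vehicle and 28 and 27 IACS-70654 cells. The cell rich in MHC class II RNA is among these, and results that turn on it are given without it too.

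**Figure D1:**
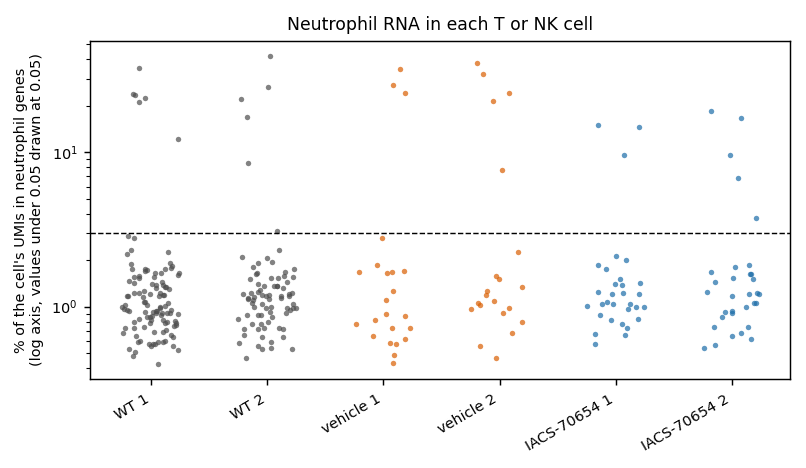
Share of each T or NK cell's UMIs in a list of 21 neutrophil genes (20 of them measured), by library, on a log axis, with 1 point for a cell and the dashed line at 3%. The 28 cells above the line are spread over all 6 libraries, and the other 270 cells cluster around 1% in each of them.

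T and NK cells were scarcer in BM of tumor-bearing mice. They made up 2.42% (95% exact binomial interval 2.00 to 2.91) and 1.82% (1.45 to 2.26) of kept cells in WT, 0.450% (0.285 to 0.674) and 0.345% with vehicle, and 0.637% and 0.520% in IACS-70654 BM. Both WT libraries were above all 4 libraries of tumor-bearing mice, and both IACS-70654 libraries were above both vehicle libraries. The share was 5.39-fold lower in vehicle than in WT BM (log2 change −2.43, SE 0.25, n = 2 libraries per group) and 3.71-fold lower in IACS-70654 than in WT BM (−1.89, SE 0.23). Cell numbers of 8 cell classes were tested with edgeR's quasi-likelihood method, with p adjusted by Benjamini-Hochberg. In this edgeR test, these differences had adjusted p = 1.43e-09 and adjusted p = 2.58e-08. The spread in this test was estimated over all 8 classes together. Such small p-values therefore do not measure how far the T and NK share itself varied between the 2 libraries of a group. The difference between IACS-70654 and vehicle (0.54, SE 0.33) did not pass (adjusted p = 0.156). The 3 comparisons share groups, so they are not independent of each other.

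Neutrophils moved the other way. Cells with at least 1% of their UMIs in S100a8 and S100a9 rose as a class by 0.38 on the log2 scale in vehicle against WT BM (adjusted p = 1.89e-12 in the same edgeR test). A share of T and NK cells was then taken among kept cells below that 1%, T and NK cells above it left out too, so that 84 of 111 and 58 of 80 remained in WT and 14 of 23 and 13 of 21 with vehicle. They were 84 of 1021 (8.23%) and 58 of 1072 cells (5.41%) in WT, 14 of 472 (2.97%) and 13 of 515 (2.52%) in vehicle, and 22 of 670 (3.28%) and 19 of 801 (2.37%) in IACS-70654 BM. The WT libraries were still the highest, while vehicle and IACS-70654 libraries overlapped. The log2 change from WT was −1.31 for vehicle (SE 0.32, edgeR adjusted p = 0.00822) and −1.28 for IACS-70654 (SE 0.28, edgeR adjusted p = 0.0034), and IACS-70654 differed from vehicle by 0.03 (SE 0.42, edgeR adjusted p = 0.951). Shares do not show whether the number of T and NK cells per bone fell, since absolute cell numbers are not given by these libraries.

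**Figure D2:**
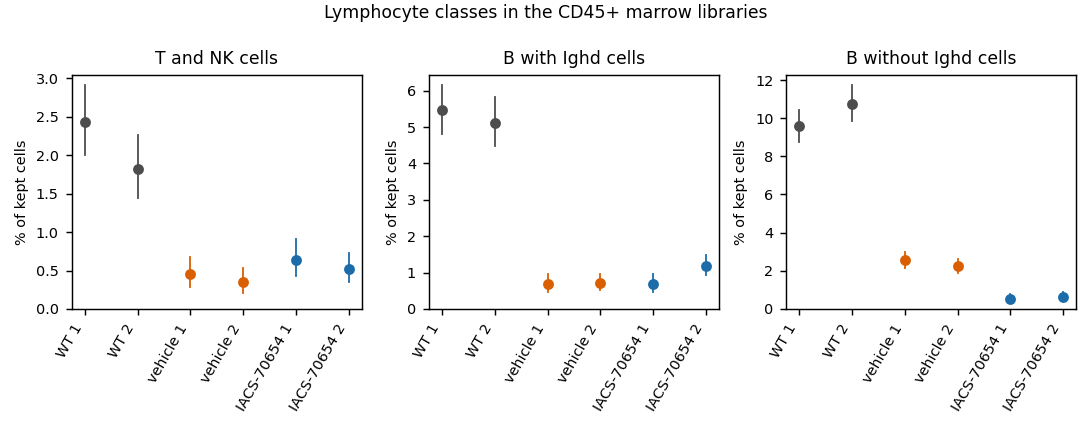
Share of kept cells in each CD45+ library that were T and NK cells, B cells with an Ighd UMI or B cells without one, with 95% exact binomial intervals as bars. All 3 classes are highest in the WT libraries, and only B cells without Ighd are lower in the IACS-70654 libraries than in the vehicle libraries with no overlap.

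Against B cells, the order of the groups was another. Mature B cells, those with an Ighd UMI, fell by 2.92 on the log2 scale in vehicle BM against WT, and B cells without one, which include the precursors, fell by 2.09. From vehicle to IACS-70654, B cells without Ighd fell by a further 2.01 (adjusted p = 4.76e-09), whereas B cells with Ighd differed by 0.46 and did not pass (adjusted p = 0.125). T and NK cells accordingly took 13.9% and 10.3% of all T, NK and B cells in WT, 12.2% and 10.5% with vehicle, and 34.4% and 22.2% in IACS-70654 BM. The IACS-70654 libraries stood above the other 4, and the WT and vehicle libraries overlapped. Shares among T, NK and B cells were added after the data were seen. Within these lymphocytes, the share of T and NK cells did not pass the test between vehicle and WT (−0.09, SE 0.27, edgeR adjusted p = 0.734), and it was higher in IACS-70654 than in vehicle BM by 1.25 (SE 0.31, edgeR adjusted p = 0.00283) and than in WT BM by 1.16 (SE 0.25, edgeR adjusted p = 0.00193). This share moved with that of B cells without Ighd, which took 54.8% and 60.8% of the lymphocytes in WT, 69.1% and 68.0% with vehicle and 28.9% and 27.1% in IACS-70654 BM.

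Both arms were scarcer in tumor-bearing mice. The NK arm held 29 and 21 cells in WT, 3 and 3 with vehicle and 1 and 4 in IACS-70654 BM, or 0.633% and 0.478%, 0.0587% and 0.0493%, and 0.0206% and 0.0650% of kept cells. The T arm held 55 and 45, 14 and 14, and 21 and 21 cells, or 1.20% and 1.02%, 0.274% and 0.230%, and 0.432% and 0.341% of kept cells. In each arm the WT libraries were above the other 4. The arms are split by the markers that chose the cells, so these are counts under that rule and no separate measure of cell identity. Arm shares of kept cells and their tests were added after the data were seen. As a share of kept cells, the NK arm was lower in vehicle than in WT by 3.32 on the log2 scale (SE 0.53, edgeR adjusted p = 7.11e-07) and the T arm by 2.15 (SE 0.31, edgeR adjusted p = 1.99e-07). For IACS-70654 against WT, the NK arm was lower by 3.55 (SE 0.55, edgeR adjusted p = 7.23e-07) and the T arm by 1.54 (SE 0.28, edgeR adjusted p = 8.09e-06). None of the arms passed between IACS-70654 and vehicle, with 0.60 for the T arm (edgeR adjusted p = 0.214) and −0.23 for the NK arm (edgeR adjusted p = 0.807).

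**Figure D3:**
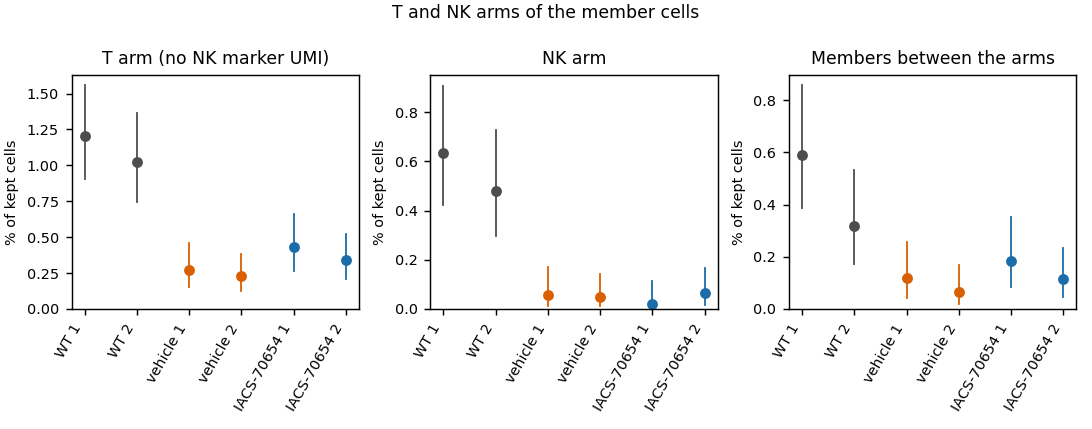
Share of kept cells in the T arm, in the NK arm and between the arms, by library, with 95% exact binomial intervals as bars and a separate vertical scale for each panel. The 2 WT points lie above the other 4 in every panel, and the NK arm falls from 29 and 21 cells to between 1 and 4.

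Within T and NK cells, the NK arm took 26.1% and 26.3% of the cells in WT, 13.04% and 14.3% with vehicle and 3.23% and 12.5% in IACS-70654 BM, with no overlap between WT and the other groups. The log2 change of this share was −0.93 for vehicle against WT (edgeR adjusted p = 0.301) and −0.76 for IACS-70654 against vehicle (adjusted p = 0.849), and only IACS-70654 against WT passed, at −1.69 (SE 0.37, edgeR adjusted p = 0.00838). The arms are split by the same markers that chose the cells, so this share depends on that rule. The call for IACS-70654 against WT was lost without IACS-70654 replicate 1, which held 1 NK arm cell (−1.05), and without WT replicate 1. It was also lost with the replicate number as a block and when cells were thinned to 1000 UMIs (−1.48, edgeR adjusted p = 0.144). In thinned cells the NK arm needed at least 1 UMI of Ncr1 or Klrb1c and none of Cd3e, Cd3g and Trbc2. Depth and arm rule thus changed together there.

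T cell subsets were seen in few cells. Among T arm cells with UMIs of only 1 coreceptor, Cd8a or Cd8b1, the marks of cytotoxic T cells, were found in 20 of 31 and 14 of 18 WT cells, 3 of 4 and 5 of 11 vehicle cells and 1 of 6 and 4 of 6 IACS-70654 cells, the rest having Cd4, the mark of helper cells. The log2 change of the Cd8 share was −0.37 for vehicle against WT (SE 0.51), −0.35 for IACS-70654 against vehicle (SE 0.75) and −0.72 for IACS-70654 against WT (SE 0.60), and no comparison passed (edgeR adjusted p between 0.273 and 0.677). A difference in Cd4 against Cd8 cells was not detectable at these numbers. Foxp3, the regulatory T cell factor, had a UMI in 22 of 170 T arm cells and 0 of 61 NK arm cells, with 8 and 7 cells in WT, 1 and 0 with vehicle and 4 and 2 in IACS-70654 BM. Trdc, the T cell receptor δ constant gene, had a UMI in 27 of 61 NK arm cells, 34 of 67 cells between the arms and 16 of 170 T arm cells, so most of its cells carried NK markers. Tcrg-C1, a γ constant gene, had a UMI in 22 of 298 cells.

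Gene levels were then compared on UMIs summed over the T and NK cells of each library and scaled to 1000000 UMIs (CPM). Genes were tested with edgeR's quasi-likelihood method, with p adjusted by Benjamini-Hochberg over 3926 genes, and a gene was called when adjusted p was below 0.01 and the log2 change exceeded 0.5 either way. Groups without overlap were common, at 43.9% of all genes in vehicle against WT, 37.3% in IACS-70654 against vehicle and 42.9% in IACS-70654 against WT. A level in these sums can move because a cell holds other amounts of RNA or because the mix of T, NK and myeloid-rich cells differs, and the sums alone do not separate these.

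In vehicle against WT T and NK cells, 28 genes rose (0.713%) and 2 fell (0.0509%), and 30 of 3926 genes (0.764%) were called. The genes that fell were Gzma, the NK granzyme, and Klf2, a transcription factor of quiescent and recirculating lymphocytes. Gzma (ENSMUSG00000023132) measured 2784 and 2807 CPM in WT and 1145 and 791 in vehicle BM, without overlap, a log2 change of −1.51 (SE 0.19, adjusted p = 9.08e-05). Klf2 (ENSMUSG00000055148) measured 321 and 290.3 CPM in WT and 92.0 and 51.4 in vehicle BM, a log2 change of −2.04 (SE 0.30, adjusted p = 0.000537). Klf2 lay in between with IACS-70654, at 224 and 147 CPM. Its log2 difference from vehicle was 1.26 (SE 0.35, edgeR adjusted p = 0.102) and from WT −0.78 (SE 0.25, edgeR adjusted p = 0.165), and neither passed.

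Both decreases were called without the myeloid-rich cells, a set added after the data were seen. Without these cells Gzma measured 2985 and 3387 CPM in WT and 1166 and 880.0 in vehicle BM (log2 change −1.67, adjusted p = 1.55e-06), and Klf2 measured 326 and 301 against 46.0 and 57.9 (−2.67, adjusted p = 0.00105). With 2889 genes tested without the myeloid-rich cells, 3 were called (0.104%), and the third was Sidt1, which encodes a transmembrane RNA transporter family protein. Sidt1 measured 313 and 392 CPM in WT and 107 and 69.5 in vehicle (−1.98, adjusted p = 0.00302). Without the neutrophil-rich cells alone, Gzma was called (−1.45, adjusted p = 0.00827) and Klf2 narrowly missed the call (−2.47, adjusted p = 0.0106). In the T arm alone Klf2 measured 428 and 341 CPM in WT, 93.6 and 39.6 with vehicle and 245 and 136 in IACS-70654 cells, and the log2 change in vehicle against WT, −2.55, missed the call (adjusted p = 0.0173). Klf2 had a UMI in 78 of 111 and 54 of 80 WT cells and in 8 of 23 and 6 of 21 vehicle cells. Its call over all T and NK cells was lost when vehicle replicate 1 (−2.52, adjusted p = 0.0143) or vehicle replicate 2 (−1.77, adjusted p = 0.0144) was left out.

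Gzma moved with the NK arm. In the NK arm and the cells between the arms together, it measured 4544 and 5048 CPM in WT, 1854 and 2252 with vehicle and 2035 and 3157 in IACS-70654 cells, so that WT libraries were also the highest among these cells. In the NK arm alone, which held 3 cells in each vehicle library, the log2 change was −0.48 and did not pass (edgeR adjusted p = 0.785). Fewer NK cells among the summed cells and less Gzma RNA per NK cell cannot be told apart here.

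Part of the called genes were neutrophil or monocyte genes. Of the 30 called genes, 10 were in the list of 21 neutrophil genes and 2 in the monocyte list, and 27 had a higher level in the other kept cells than in T and NK cells. The share of all tested genes that were higher in other kept cells was not counted, so the 27 cannot be set against it. Fn1, fibronectin, measured 1.54 and 6.70 CPM in WT and 56.2 and 90.0 in vehicle T and NK cells, but 9 of its 11 UMIs in vehicle replicate 1 and 14 of 14 in replicate 2 came from 1 cell each. For Ctsl, which encodes cathepsin L, 1 cell held 23 of 26 and 25 of 27 UMIs of the vehicle libraries. Orm1, an acute phase protein gene (log2 change 3.54, adjusted p = 0.000953), and Chil3, a chitinase-like gene of myeloid cells (1.44, adjusted p = 0.0031), had 92.7% and 87.8% of all their UMIs in myeloid-rich cells. Chil3 is in the neutrophil list that helped define those cells, so its share there is partly set by that choice. Of the 28 genes that rose, 14 could still be tested without the myeloid-rich cells, and none of these was called. For genes of the neutrophil list, such a loss follows partly from how those cells were chosen. How myeloid RNA came into cells with T or NK markers was not tested.

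In IACS-70654 against vehicle T and NK cells, 6 genes rose (0.153%) and 25 fell (0.637%), or 31 of 3926 genes (0.79%). Of these 31 genes, 12 were neutrophil genes, 2 monocyte genes, and 28 were higher in other kept cells. These counts take genes that rose and genes that fell together. The share of all tested genes higher in other kept cells was again not counted. Plcb1, a phospholipase gene, Orm1, Ctsl, Chil3, Ly6c2, Morrbid and Cmah fell by between 1.76 and 5.19 on the log2 scale. Without the myeloid-rich cells, Plcb1, Orm1, Ctsl and Chil3 had too few UMIs to be tested, and those cells had held 94.2%, 92.7%, 45.7% and 87.8% of their UMIs. For Chil3, a gene of the neutrophil list, this is again partly set by how those cells were chosen. Ly6c2, Morrbid and Cmah could be tested without them and were not called, with log2 changes of −0.98, −1.24 and −0.56 (adjusted p = 0.703, 0.706 and 0.756). Ctsg, the neutrophil granule gene of cathepsin G, measured 10.2 and 19.3 CPM with vehicle and 257 and 1022 with IACS-70654 (log2 change 5.43, adjusted p = 0.000491). Of its UMIs in the IACS-70654 libraries, 36 of 40 and 186 of 195 were in 1 cell each.

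S100a4 and Malat1 differed between IACS-70654 and vehicle in other ways. S100a4 (ENSMUSG00000001020), a calcium-binding protein gene of effector and memory lymphocytes and of myeloid cells, measured 159 and 277 CPM in WT, 475 and 489 with vehicle and 77.0 and 168 in IACS-70654 BM. It was highest with vehicle, and the WT and IACS-70654 libraries overlapped. The log2 change from vehicle to IACS-70654 was −1.99 (SE 0.34, adjusted p = 0.00213), and without myeloid-rich cells it was −2.13 (adjusted p = 0.00321), the 1 gene of 2889 (0.0346%) called there, whereas without the neutrophil-rich cells alone it missed the call (−2.20, adjusted p = 0.0117). In cells of the NK arm and between the arms it measured 588 and 458 CPM with vehicle and 0 and 68.2 with IACS-70654, and in the T arm 294 and 506 against 118 and 212, so neither overlapped. In vehicle replicate 1, the cell rich in MHC class II RNA held 53 of the 93 S100a4 UMIs. Without that 1 cell the change was −1.51 and missed the call (adjusted p = 0.0846). The call was also lost when cells needed 4 marker UMIs (−1.47, adjusted p = 0.195), when cells were thinned to 1000 UMIs (−1.26, adjusted p = 0.414), and without vehicle replicate 1 (adjusted p = 0.0488), vehicle replicate 2 (adjusted p = 0.0169) or IACS-70654 replicate 1 (adjusted p = 0.0475).

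Malat1 (ENSMUSG00000092341), a long nuclear RNA, measured 9274 and 9255 CPM in WT, 9831 and 9060.2 with vehicle and 17042 and 14441 in IACS-70654 T and NK cells. The IACS-70654 libraries were above the other 4, by 0.68 on the log2 scale against vehicle (SE 0.11, adjusted p = 0.00172) and by 0.73 against WT (SE 0.11, adjusted p = 0.00201). B cells with Ighd showed a like difference from vehicle, 0.57 (adjusted p = 0.0162), and the difference between both classes was 0.11 (adjusted p = 0.663). Without myeloid-rich cells, Malat1 was higher than in vehicle by 0.63 (adjusted p = 0.0277) and than in WT by 0.79 (adjusted p = 0.00124). In the T arm alone, the vehicle libraries (14570.2 and 10685) and the IACS-70654 libraries (20204 and 14004) overlapped. The call against vehicle was lost without IACS-70654 replicate 1 (0.57, adjusted p = 0.180) or replicate 2 (0.76, adjusted p = 0.0491), and the call against WT without either WT or either IACS-70654 library (adjusted p between 0.0129 and 0.150).

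Ms4a4c, a membrane-spanning gene of lymphocytes and monocytes, and Lgals3, galectin-3, completed the genes named for this comparison. Ms4a4c had 23 and 16 UMIs in WT, 15 and 11 with vehicle and 0 and 0 in IACS-70654 T and NK cells. Against the level that 3 UMIs over both IACS-70654 libraries would give, it was at least 8.56-fold lower than with vehicle (74.0 CPM), and leaving out any library of these groups ended the call (adjusted p between 0.0436 and 0.133). Without neutrophil-rich cells it missed the call (adjusted p = 0.0686), and without myeloid-rich cells its UMIs were too few for it to be tested. The cell rich in MHC class II RNA held 8 of the 15 UMIs in vehicle replicate 1, and without it Ms4a4c was again too low to be tested. Lgals3 measured 404 and 585 CPM with vehicle and 179.6 and 73.4 in IACS-70654 cells (log2 change −2.05, SE 0.35, adjusted p = 0.00213), with 216 and 319 in WT. Without the myeloid-rich cells the change was −1.95 and missed the call (adjusted p = 0.0201), as it did without vehicle replicate 1 (adjusted p = 0.0110), vehicle replicate 2 (adjusted p = 0.0339) or IACS-70654 replicate 2 (adjusted p = 0.0550).

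In IACS-70654 against WT T and NK cells, 12 genes rose (0.306%) and 14 fell (0.357%), or 26 of 3926 genes (0.662%), 9 of them neutrophil genes. The genes that fell and are known from NK and effector cells were Gzma, Ccl4, Itga2, Serpinb6b, Lgals1 and Plek. Gzma measured 706 and 975 CPM with IACS-70654, a log2 change of −1.76 from WT (SE 0.19, adjusted p = 3.81e-05), and −0.25 from vehicle (adjusted p = 0.788). Ccl4 (ENSMUSG00000018930), the chemokine MIP-1β, measured 202 and 335 CPM in WT, 61.3 and 244 in vehicle and 25.7 and 15.7 with IACS-70654 (IACS-70654 against WT −3.72, SE 0.59, adjusted p = 0.00201). In WT replicate 2, a single cell held 90 of 150 Ccl4 UMIs. Lgals1 (ENSMUSG00000068220), galectin-1, measured 1173 and 1061 in WT, 711 and 489 in vehicle and 359 and 252 with IACS-70654, without overlap between the groups (IACS-70654 against WT −1.92, SE 0.22, adjusted p = 9.02e-05). Gzma and Lgals1 were called against WT whichever of the 6 libraries was left out. In the T arm alone Lgals1 measured 487 and 506 in WT, 241 and 178 in vehicle and 373 and 249.8 with IACS-70654, and was not called (IACS-70654 against WT −0.74, adjusted p = 0.565).

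**Figure D4:**
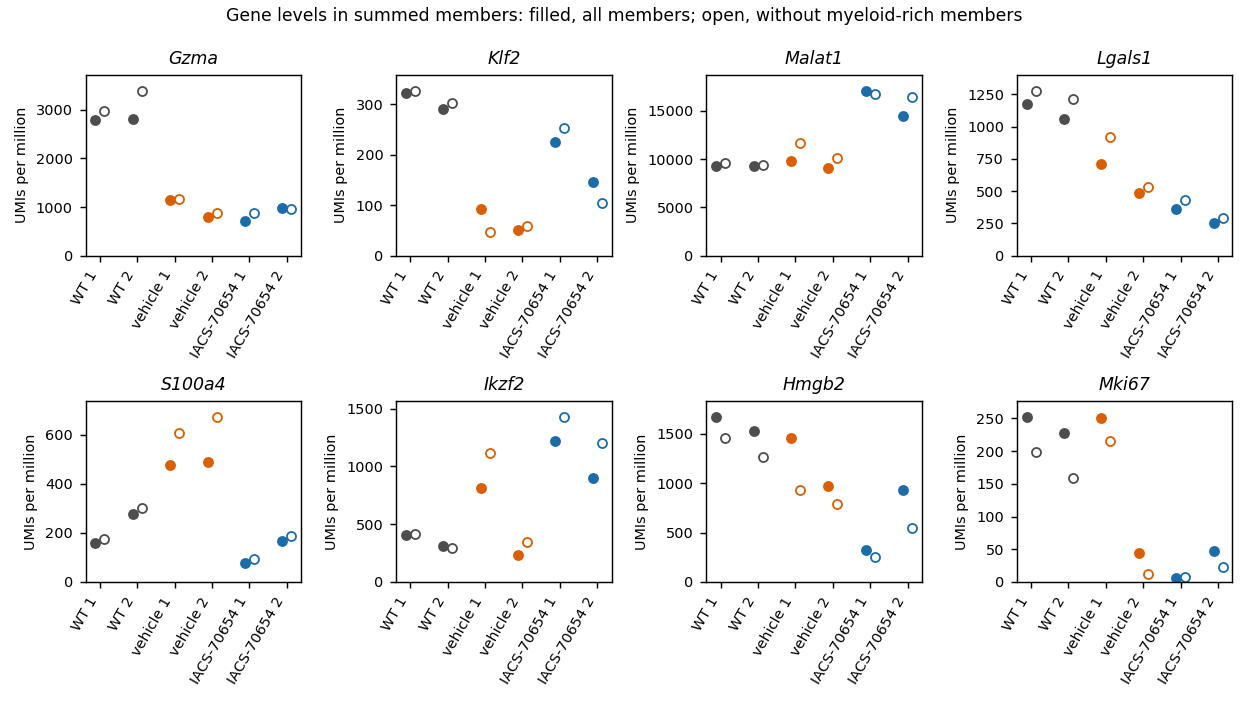
CPM of 8 genes in the summed T and NK cells of each library, with filled points for all cells and open points without the myeloid-rich cells. Gzma is at 2784 and 2807 CPM in WT and between 706 and 1145 in the other 4 libraries, Klf2 is lowest with vehicle, Malat1 is highest with IACS-70654, S100a4 is highest with vehicle, Lgals1, Hmgb2 and Mki67 are lower with IACS-70654 than in WT, and Ikzf2 is higher.

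Itga2, the CD49b integrin of NK cells, measured 222 and 239 CPM in WT and 51.3 and 105 with IACS-70654 (log2 change −1.55, adjusted p = 0.00938). Serpinb6b, a granzyme-inhibiting serpin gene, measured 120.4 and 156 against 25.7 and 36.7 (−2.13, adjusted p = 0.00676), and Plek, which encodes the protein kinase C substrate pleckstrin, 182 and 219 against 57.7 and 62.9 (−1.75, adjusted p = 0.00438). In WT, these 3 genes were low in the T arm, where Itga2 measured 3.93 and 25.0 CPM against 364 and 411 in the NK arm and the cells between. They fell beside the share of the NK arm, whose part in the result was not tested. Rap1gap2, a Rap1 GTPase-activating protein gene (−2.67, adjusted p = 0.00201), and Dnah8, a dynein gene (−1.28, adjusted p = 0.00958), also fell. Mdfic, a gene of a transcription factor inhibitor (1.56, adjusted p = 0.00863), and Atxn1, ataxin-1 (1.26, adjusted p = 0.00676), rose, with Atxn1 at 174 and 223 CPM in WT, 256 and 328 in vehicle and 552 and 425 with IACS-70654. Without the myeloid-rich cells, Plek, Rap1gap2, Mdfic and Atxn1 were called, and Itga2, Serpinb6b and Dnah8 were not. Apart from Gzma and Lgals1, each gene named for IACS-70654 against WT lost its call when at least 1 IACS-70654 library was left out (Ccl4 adjusted p = 0.0344 and 0.0399 without replicate 1 and 2, Mki67 0.153 and 0.0161, Itga2 0.156 and 0.0110, Plek 0.0710 and 0.0399, Serpinb6b 0.0964 and 0.0327, Atxn1 0.114 and 0.0110). By DESeq2, 8 genes were called in this comparison.

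Without the myeloid-rich cells, 22 of 2889 genes (0.762%) were called in IACS-70654 against WT T and NK cells, 9 of them among the 26 above. They included genes of dividing cells. Hmgb2, a chromatin protein gene of proliferating cells, measured 1463 and 1272 CPM in WT, 936 and 787 in vehicle and 253 and 552 with IACS-70654 (IACS-70654 against WT −1.78, adjusted p = 5.8e-05). Stmn1, which encodes the microtubule protein stathmin (−1.97, adjusted p = 0.00139), and the histone variant gene H2afz (−1.29, adjusted p = 0.00139) were lower in the same way. Mki67, the gene of the proliferation antigen Ki-67, was called with and without the myeloid-rich cells, and over all T and NK cells it measured 252 and 228 CPM in WT, 251 and 45.0 in vehicle and 6.41 and 47.2 with IACS-70654 (−3.08, SE 0.56, adjusted p = 0.00676). It was not called without the neutrophil-rich cells alone (−4.01, adjusted p = 0.0125) or by DESeq2 (−3.16, adjusted p = 0.599). For Mki67 the vehicle libraries stood far apart, 1 at the WT level and 1 at the IACS-70654 level.

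Ikzf2, Rgs1, Inpp4b and Il18r1 were called in the same setting, and were chosen for the text after their values were seen. Il18r1, an IL-18 receptor chain, was lower than in WT by 1.34 (adjusted p = 0.00466). Ikzf2, which encodes the transcription factor Helios of regulatory and innate-like T cells, was higher at 1426 and 1208 against 416 and 296 in WT (1.85, adjusted p = 0.000255), with 1119.7 and 347 in the vehicle libraries. Rgs1, a regulator of chemokine receptor signaling (2.29, adjusted p = 0.00387), and Inpp4b, an inositol phosphatase gene (1.21, adjusted p = 0.00197), were higher too. With all T and NK cells counted, 1 cell each held 18 of 39 and 7 of 13 Rgs1 UMIs in the IACS-70654 libraries. For Ikzf2, 1 cell each held 56 of 190 and 32 of 171 UMIs there. Over all T and NK cells, these 4 genes did not reach the call threshold (adjusted p between 0.0171 for Ikzf2 and 0.170 for Il18r1).

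Cells with mitotic RNA were counted directly, as those with at least 2 UMIs over 10 mitotic genes, myeloid-rich cells included. In the NK arm and between the arms they were 15 of 56 and 13 of 35 cells in WT, 5 of 9 and 3 of 7 in vehicle, and 2 of 10 and 0 of 11 in IACS-70654 BM. In the T arm they were 6 of 55 and 4 of 45 in WT, 1 of 14 and 2 of 14 in vehicle, and 4 of 21 and 4 of 21 in IACS-70654 BM. By this count the share in cells with NK markers was lower in both IACS-70654 libraries than in the other 4, and the share in the T arm was not. Over all T and NK cells, the counts of 21 and 17, 6 and 5, and 6 and 4 cells came to 18.9% and 21.3%, 26.1% and 23.8%, and 19.4% and 12.5%. Once the myeloid-rich cells were left out, they were 12 of 51 and 12 of 33 NK arm and between-arm cells in WT, 3 of 6 and 2 of 6 with vehicle, and 2 of 10 and 0 of 9 in IACS-70654 BM. In the T arm they were then 6 of 53 and 2 of 39, 0 of 13 and 1 of 9, and 3 of 18 and 3 of 18 cells. The order in cells with NK markers, all included, did not hold once each cell was thinned to 1000 UMIs. Cells with at least 1 mitotic UMI were then 16 of 56 and 9 of 35 in WT, 3 of 9 and 0 of 7 with vehicle, and 2 of 10 and 1 of 11 in IACS-70654 BM, so vehicle replicate 2 lay below both IACS-70654 libraries. With at least 2 mitotic UMIs after thinning they were 11 and 5, 1 and 0, and 0 and 0 cells. No test was run on these counts.

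Gene lists put these changes side by side, with calls by edgeR over all T and NK cells where nothing else is said. Of 18 T cell genes outside the rule, such as Cd3d, Trac, Lck and Thy1, 17 could be tested and none was called in any of the 3 comparisons by edgeR or by DESeq2 (0, 0 and 2 genes at an unadjusted p under 0.05), with a median log2 change of −0.10 in vehicle against WT, 0.13 in IACS-70654 against vehicle and 0.02 in IACS-70654 against WT. Over all 3926 genes the medians lay between −0.01 and 0. Cd3d measured 321 and 284 CPM in WT, 322 and 231 in vehicle and 321 and 246 with IACS-70654. Of 24 NK cell genes outside the rule, 19 could be tested, and Itga2 fell with IACS-70654 against WT as the only call (none by DESeq2), with 16 of 19 genes below 0 and a median of −0.64. Without the myeloid-rich cells no gene of this list was called there. In vehicle against WT, 15 of 19 NK genes were below 0 and the median was −0.58. Klrd1, as an example, measured 639 and 710.0 CPM in WT, 399 and 315 in vehicle and 436 and 367 with IACS-70654.

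Of 15 cytotoxicity genes, 12 could be tested. Gzma was the only call in vehicle against WT, Gzma and Serpinb6b fell in IACS-70654 against WT, and the medians were −0.38 and −0.66. With the myeloid-rich cells left out, 11 genes could be tested and the medians were −0.18 and −0.62. Gzma was then the only call of this list in either comparison, and the Serpinb6b call was lost. Nkg7 (1212 and 1016 CPM in WT, 915 and 868 in vehicle, 718 and 661 with IACS-70654) and Prf1, the perforin gene (151 and 123, 61.3 and 64.3, and 32.1 and 68.2), had an adjusted p of 0.0373 each in IACS-70654 against WT. Ccl5, the chemokine RANTES of memory T and NK cells, was at 3412 and 2896 CPM in WT, 2740.2 and 2996 in vehicle and 3861 and 3901 with IACS-70654, and did not pass in any comparison. Of 14 cytokine and chemokine genes, 7 could be tested and Ccl4 alone was called, by edgeR in IACS-70654 against WT and by DESeq2 also in IACS-70654 against vehicle.

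Of 13 genes of naive and central memory T cells, 9 could be tested. Klf2 was the only call, in vehicle against WT, where 8 of 9 genes were below 0 with a median of −0.74. In IACS-70654 against WT, 9 of 9 were below 0 with a median of −0.50 and none was called. Lef1, a transcription factor gene of naive T cells, measured 629 and 591 CPM in the T arm of WT, 201 and 317 with vehicle and 177 and 129 in IACS-70654 BM. Its log2 change in the T arm was −1.17 for vehicle against WT (edgeR adjusted p = 0.139) and −2.06 for IACS-70654 against WT (edgeR adjusted p = 0.0158). Of 16 memory and effector genes, 13 could be tested, and S100a4 and Ly6c2 fell in IACS-70654 against vehicle, S100a4 only with the cell rich in MHC class II RNA included.

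Of 20 cell cycle genes, 14 could be tested, and Mki67 was the only call (none by DESeq2), with IACS-70654 against WT, where 14 of 14 genes were below 0 with a median of −1.14. In vehicle against WT 13 of 14 were below 0 (median −0.62), and in IACS-70654 against vehicle 13 of 14 (median −0.81). Neither of these comparisons had a call by edgeR or DESeq2 (4 and 3 genes at an unadjusted p under 0.05). Myeloid-rich cells held 39.3% of the Mki67, 48.6% of the Ube2c and 53.1% of the Cdk1 UMIs. Without them 10 genes could be tested, and the medians were −0.30 in vehicle against WT, −1.41 in IACS-70654 against vehicle and −1.30 in IACS-70654 against WT. In the T arm alone the median in IACS-70654 against WT was −0.18.

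Over all T and NK cells, no gene was called by edgeR or DESeq2 in 15 further lists, for which the number that could be tested is given here. They were 13 of 15 MHC class I and antigen processing genes, 13 of 36 type I IFN response genes, 6 of 12 checkpoint genes, 4 of 8 regulatory T cell genes, 2 of 3 CD4 and CD8 coreceptor genes, and 5 of 16 γδ T, NKT and innate lymphoid genes. Of signaling and stress genes they were 20 of 22 immediate early genes, 7 of 12 glucocorticoid response genes, 7 of 13 NF-κB genes, 13 of 19 cytokine receptor genes and 11 of 17 trafficking genes. Of general cell functions they were 13 of 17 genes of CBP, P300 and other chromatin regulators, 9 of 16 Myc and biogenesis genes, 8 of 14 survival genes and 9 of 13 metabolic genes. With the T cell genes, these lists held 157 edgeR tests in each comparison, and a gene in more than 1 list was counted in each. In vehicle against WT, IACS-70654 against vehicle and IACS-70654 against WT, 20, 24 and 30 of them had an unadjusted p under 0.05. The same count over all 3926 genes is not given here, so these numbers cannot be set against it. Without the myeloid-rich cells, 297, 247 and 303 of all 2889 genes had an unadjusted p under 0.05 by edgeR. Without the myeloid-rich cells, edgeR called 1 gene in each of 4 of these lists in IACS-70654 against WT, upward in the regulatory T cell list (Ikzf2) and the immediate early list (Rgs1) and downward in the cytokine receptor list (Il18r1) and the trafficking list. None of 7 MHC class II genes was high enough to be tested here. Their sum was 956 CPM in vehicle replicate 1, mostly from the 1 cell named above, and between 43.2 and 77.0 CPM in the other 5 libraries. The MHC class I list had its largest median, 0.43, in IACS-70654 against WT, with 11 of 13 genes above 0. H2-K1, a classical class I gene, measured 1059 and 980.2 CPM in WT, 1022 and 1061 in vehicle and 1482 and 1426 with IACS-70654, and did not pass (0.43 from vehicle, adjusted p = 0.365). The type I IFN list had medians of 0.00, −0.17 and 0.11 in the 3 comparisons, and of 0.05, −0.02 and −0.07 without the myeloid-rich cells. Of 6 long noncoding genes, 5 could be tested and Malat1 alone rose, with IACS-70654 against both other groups. An absent call does not show that a gene was unchanged. Data were simulated at these depths, with 1 preset spread for all genes and changes put into IACS-70654 only. There, 2-fold changes were called for 1 of 90 genes in IACS-70654 against vehicle and 3 of 90 in IACS-70654 against WT. For 4-fold changes these were 25 of 95 and 46 of 95 genes. Detection in vehicle against WT was thus not covered, and single cells rich in a gene were not simulated.

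**Figure D5:**
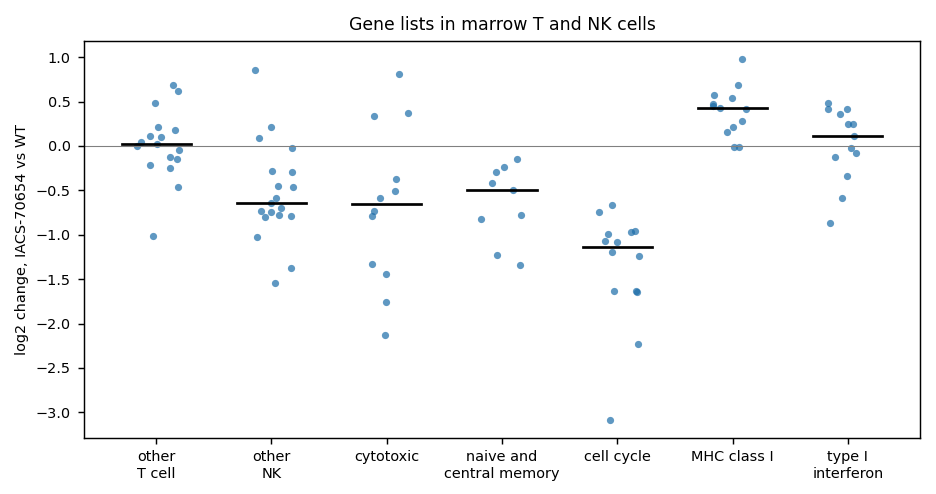
Log2 change of each tested gene of 7 gene lists in IACS-70654 against WT T and NK cells, with 1 point for a gene and a bar at the median of the list. T cell genes center near 0, NK, cytotoxic and cell cycle genes lie mostly below 0 with medians of −0.64, −0.66 and −1.14, and MHC class I genes lie mostly above 0.

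Changes in T and NK cells were also compared with those in 654 B cells with Ighd of the same libraries, with the library as a block and 5212 genes tested by edgeR's quasi-likelihood test. The change differed between both classes for 22 genes (0.422%) in vehicle against WT, 56 genes (1.07%) in IACS-70654 against vehicle and 20 genes (0.384%) in IACS-70654 against WT. In IACS-70654 against WT, Lgals1 fell by 1.92 on the log2 scale in T and NK cells and differed by −0.02 in B cells, a difference of −1.93 (SE 0.30, adjusted p = 0.00222). Plek likewise had log2 changes of −1.75 in T and NK cells and 0.59 in B cells (difference −2.34, SE 0.42, adjusted p = 0.00648). Both differences were lost when either WT library was left out. Of the 22 genes in vehicle against WT, 4 were the MHC class II genes Cd74, H2-Aa, H2-Ab1 and H2-Eb1, none of which passed without the 1 cell rich in their RNA. Klf2 in vehicle against WT differed from B cells by −1.56 and missed the threshold (adjusted p = 0.0372). These counts moved widely with single libraries. In the same order they were 1, 17 and 0 genes without WT replicate 1, 1, 21 and 0 without WT replicate 2, 47, 70 and 66 without vehicle replicate 1, 29, 67 and 61 without vehicle replicate 2, 45, 40 and 5 without IACS-70654 replicate 1, and 39, 30 and 17 without IACS-70654 replicate 2.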

How the data were processed

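Single-cell 3′ RNA-seq was analysed in 6 of the 16 libraries of the series. The deposited matrices hold UMI counts per gene and cell barcode, which the authors made with CellRanger multi 7.2.0 per the file headers. The submitters' processing notes also name Cell Ranger, Seurat and mm10. A cell filter (between 200 and 6000 genes and at most 10% mitochondrial UMIs) kept 31191 of 32195 barcodes. It is a reading of the study's methods, which state the first limits as read counts and add a further UMI criterion not applied here. No doublet caller was run. Kept libraries had median UMIs of 4113 to 6596.5 per cell. The T and NK cells, the gene lists and the tests were chosen with earlier results of these data known.

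Counts were summed per library over T and NK cells and tested with edgeR 4.0.16 in R 4.3.3 (quasi-likelihood test, TMM scaling, filterByExpr, the 7 rule genes left out, all 3 groups in 1 fit). DESeq2 1.42.0 was an alternative. Cell numbers were tested with edgeR at an adjusted p under 0.05. The share of T and NK cells was tested over 8 cell classes with kept cells as the offset. The test without neutrophils left that class out. Arm shares of kept cells had the 3 arms in place of the T and NK class. Tests within T and NK cells used the 3 arms, those within lymphocytes the T and NK class and both B cell classes, and the Cd8 test Cd4 and Cd8 cells. The offset of each was its own total. The spread was estimated over all classes of a test together. Cell classes followed UMI rules: B cells had at least 3 UMIs of Cd79a and Cd79b, plasmacytoid dendritic cells at least 2 of Siglech, basophils at least 3 of Mcpt8 and Prss34, monocytes at least 3 of Csf1r, F13a1 and Ms4a6c, and neutrophils at least 1% of UMIs in S100a8 and S100a9. Named genes were called, at a mean of at least 20 CPM, without overlap between groups, at a level in the higher group at least 0.5 of that in other kept cells, and among the 12 largest or 12 smallest changes. Others were named as members of lists or after their values were seen. Shares carry 95% Clopper-Pearson intervals, which cover counting error only, as does the floor of 3 counts. The numerical steps in Python 3.11.15 used numpy 2.4.6, pandas 2.3.3 and scipy 1.17.1, and the tests were checked on simulated data. The sets without myeloid-rich cells, the set without the cell that held at least 10 UMIs of MHC class II genes, the mitotic counts, the T arm without neutrophil-rich cells and the crossed replicate block were added after the data were seen. So were the shares of the arms among kept cells and the shares among T, NK and B cells, with their tests. Deviations of same-numbered libraries correlated at 0.07, −0.11 and 0.02 over 3926 genes. Sums over so few cells carry much counting noise, so these values cannot show whether replicate numbers paired the libraries.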

Additional observations from a re-analysis of the deposited data

Results flagged for a closer look

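For 11 of the named gene results, the change in T and NK cells differed from the change in B cells with an Ighd UMI of the same libraries, by edgeR's quasi-likelihood test of the difference with Benjamini-Hochberg adjustment over 5212 genes.

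In vehicle against WT, Fn1 differed by 7.06 (SE 0.99, adjusted p = 0.000774), with a log2 change of 4.16 in T and NK cells and −2.87 in B cells. Chil3 differed by 1.98 (SE 0.36, adjusted p = 0.00696). Both rest on a few cells with myeloid RNA, and after the myeloid-rich cells were left out the differences were 3.44 (adjusted p = 0.69) and 0.00 (adjusted p = 1). Both also missed the threshold when either WT library was left out, and Chil3 without vehicle replicate 1. Chil3 is also in the neutrophil list that helped define the myeloid-rich cells.

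In IACS-70654 against vehicle, 7 genes were lower in T and NK cells relative to B cells. Plcb1 differed by −9.35 (SE 1.07, adjusted p = 5.59e-05), Chil3 by −4.15 (SE 0.50, adjusted p = 7.72e-05), Ly6c2 by −3.40 (SE 0.63, adjusted p = 0.00462) and Morrbid by −3.41 (SE 0.66, adjusted p = 0.0062). Without the myeloid-rich cells none of these 4 passed, at −3.81 (adjusted p = 1), −0.40 (adjusted p = 0.949), −1.59 (adjusted p = 0.46) and −2.34 (adjusted p = 0.201). With 1 library left out at a time, Ly6c2 missed the threshold in 4 of 6 cases and Morrbid in 5 of 6. Lgals3 differed by −3.03 (SE 0.37, adjusted p = 7.72e-05) and also without those cells (−2.94, adjusted p = 6.1e-05). Ms4a4c differed by a fitted −10.31 (SE 1.28, adjusted p = 0.000119) and S100a4 by a fitted −10.02 (SE 1.14, adjusted p = 6.54e-05), and both passed without those cells too (adjusted p = 0.000259 and adjusted p = 8.87e-08). These fitted sizes are no bounds, since Ms4a4c had 0 UMIs in the IACS-70654 T and NK cells and S100a4 had 0 UMIs in the vehicle B cells. S100a4 measured 0 and 0 CPM with vehicle and 95.7 and 70.9 in IACS-70654 B cells, against 475 and 489 and 77.0 and 168 in T and NK cells. The cell of vehicle replicate 1 that was rich in MHC class II RNA held 53 of 93 S100a4 and 8 of 15 Ms4a4c UMIs there, and without it the differences were a fitted −9.66 (adjusted p = 2.75e-05) and −9.91 (adjusted p = 0.000264).

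In IACS-70654 against WT, Lgals1 differed by −1.93 (SE 0.30, adjusted p = 0.00222) and Plek by −2.34 (SE 0.42, adjusted p = 0.00648). Both differences also passed without the myeloid-rich cells, at −1.86 (adjusted p = 7.66e-05) and −2.55 (adjusted p = 0.000582). Without WT replicate 1 or WT replicate 2, no gene passed in this comparison, and the adjusted p was 0.154 and 0.109 for Lgals1 and 0.197 and 0.163 for Plek. Lgals1 was also lost without IACS-70654 replicate 2, and Plek when either IACS-70654 library was left out.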

How the results depend on the processing

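The share of T and NK cells among kept cells kept its direction and its side of the threshold in all 36 alternatives, with ranges over left-out libraries of −2.62 to −2.21 for vehicle against WT, 0.34 to 0.72 for IACS-70654 against vehicle and −2.08 to −1.67 for IACS-70654 against WT. Counts of called genes are given below in the order vehicle against WT, IACS-70654 against vehicle and IACS-70654 against WT, where 30, 31 and 26 were called. They were 18, 22 and 8 by DESeq2, 51, 52 and 78 at an adjusted p under 0.05 with no minimum change, 77, 74 and 101 with no filter on low counts, 14, 18 and 12 with at least 4 marker UMIs, 35, 41 and 14 with at least 2, and 8, 8 and 7 after thinning to 1000 UMIs. They were 2, 2 and 6 without neutrophil-rich cells, 3, 1 and 22 without myeloid-rich cells, 32, 30 and 31 without the cell rich in MHC class II RNA, 1, 9 and 0 in the T arm, 8, 1 and 0 in the T arm without neutrophil-rich cells, and 0, 0 and 0 by edgeR in the NK arm, where 36, 61 and 39 genes had an unadjusted p under 0.05. The cause of these differences was not tested beyond the smaller sets of cells. With 1 library left out the counts ranged from 10 to 37, from 16 to 60 and from 13 to 44. With the replicate block they were 42, 32 and 33, and with the block crossed 36, 34 and 35. With no filter the median of all genes moved to −0.16, 0 and −0.15.

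Genes whose change differed from B cells numbered 22, 56 and 20. They were 56, 121 and 49 at an adjusted p under 0.05, 55, 79 and 58 without neutrophil-rich cells, 26, 40 and 48 without myeloid-rich cells, 25, 68 and 32 without the cell rich in MHC class II RNA, and 1 to 47, 17 to 70 and 0 to 66 with 1 library left out. The NK arm share in IACS-70654 against WT missed the threshold with the replicate block (−1.70) and after thinning, which had its own arm rule (−1.48). With 1 library left out its log2 change ran from −0.99 to −0.86, from −2.003 to −0.12 and from −2.93 to −1.05. The Cd8 share turned direction to 0.11 and 0.32 with 1 library left out and to 0.74 after thinning, and ran from −0.60 to 0.11, from −1.63 to 0.32 and from −2.001 to −0.06. Of 753 alternatives for 43 single gene results, 492 kept direction and side, 197 missed the threshold, 60 newly passed it and 4 turned direction (Ccl4 to 0.12, Stmn1 to 0.013, Il18r1 to 0.018 and Lef1 to 0.57, all within arms). The number of cells limits these results, with as few as 21 T and NK cells and 1 NK arm cell in a library.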
